A study of Mus musculus with 11 samples.

Results

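The genes described here are 9 genes of amino acid transport and of the ATF4 response: Slc7a5, Slc3a2, Atf4, Ddit3, Trib3, Asns, Chac1, Psat1 and Phgdh. They were picked by name with earlier results of these libraries known. The values that chose them were read counts scaled to library size (CPM) in the 3 groups and within each form of library title, so the fold changes below are a description and test nothing about the choice. Of the 9 genes, 8 were measured among 13734 genes in all, and the level of Trib3 was not analysed here. The RNA came from isolated glomeruli, the filtering units of the kidney, sequenced in bulk as 11 libraries. The db/m vehicle group (n = 4) held heterozygous littermates that received 5% DMSO. The db/db vehicle group (n = 4) held mice with the db mutation of the leptin receptor gene on both copies, which grow obese and diabetic and develop kidney disease, and which received the same vehicle. The db/db puerarin group (n = 3) received puerarin, an isoflavone glycoside of kudzu root, by gavage at 20 mg per kg per day in that vehicle. All groups were treated from 10 weeks of age for 6 weeks. The labels call the mice male and give the BKS background in the protocol and C57BL/6J in the strain field. The db allele acts in the whole body, so no glomerular cell type was targeted. Nothing in the labels says whether a library held 1 mouse or a pool, so errors and p-values measure only how these samples differ, part of which may be technical.

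The ATF4 response is the transcriptional arm of the integrated stress response. Kinases that sense amino acid shortage, unfolded protein, heme lack or double-stranded RNA phosphorylate the translation factor eIF2, which slows most protein synthesis but raises translation of the Atf4 mRNA through its upstream reading frames. ATF4 then pairs with C/EBP proteins and activates genes for amino acid import and synthesis, and, under lasting stress, Ddit3, Trib3 and Chac1. Because much of this control is translational, the level of Atf4 mRNA does not measure ATF4 protein. Slc7a5 encodes LAT1, the carrier of leucine and other large neutral amino acids, and Slc3a2 encodes CD98 heavy chain, the partner that brings LAT1 and related carriers to the cell surface. Leucine entering through this pair is a known input to the growth kinase mTORC1.

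The titles of 5 libraries were S numbers and those of the other 6 a tag of the group plus a number, and every group had both forms. The labels do not say what the forms mean. The libraries had 35369703 to 44244460 counts. Of the 11 libraries, 2 went against the labelled sex: Xist, which silences the inactive X chromosome, was at 528.5 CPM in puerarin 2 and at 819 CPM in puerarin 3, while the other 9 libraries had 0.519 to 6.47 CPM. Their Y-linked Ddx3y stood at 3.06 and 0.909 CPM, with 50.3 to 85.2 CPM elsewhere. These 2 libraries are the whole group-tag part of the puerarin group. The puerarin differences within the S-number libraries therefore hold neither of them, and rest on S144 as the single puerarin library. A fit that leaves the 2 out still uses the group-tag vehicle libraries and can give other values. Podocyte markers were present in every library (8 of 8 measured, summed 10618 to 15875 CPM, none at 0). So were markers of glomerular endothelium (8 of 8, 3122 to 6962 CPM) and mesangium (7 of 7, 1270 to 2222 CPM). Tubule markers were present as well, with proximal tubule at 542 to 5071 CPM, and loop and distal tubule at 1536 to 11687 CPM. In bulk RNA, fewer cells of a type and less RNA per cell cannot be told apart.

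The start-site windows of the genes were searched for the core of the C/EBP-ATF response element, the sequence through which ATF4 acts on its targets, spelled TGATGNAA, on both strands. RefSeq windows (GRCm38.p6, 250 bases before to 50 bases after the start) were given for 8 of the 9 genes, and Slc7a5 had none in that table. The core was found in the windows of 3 genes, Asns, Chac1 and Trib3. It was in 3.97% of all 32851 windows (1304 windows) and in 2.33% of the 13843 windows of genes in the count table. The cAMP response element, TGACGTCA, was in the windows of 0 of the genes. It was in 1.79% of all windows and in 2.73% of the 13843 windows of genes in the count table. The stretches around the Asns and Chac1 matches are shown because these are the measured genes that carry the core. They are 68 bases each, read along the gene 5′ to 3′, with the match in capitals, at chr6:7693195-7693262 (minus strand) and chr2:119351019-119351086 (plus strand).
Asns: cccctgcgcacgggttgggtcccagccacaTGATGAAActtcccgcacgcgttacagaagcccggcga
Chac1: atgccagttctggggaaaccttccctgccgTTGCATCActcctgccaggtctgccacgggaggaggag

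The Asns match reads along the gene and lies 23 to 16 bases before the start (chr6:7693225-7693232). The Chac1 match lies on the opposite strand, 193 to 186 bases before the start (chr2:119351049-119351056), and reads TGATGCAA on that strand. The Trib3 match, TGATGTAA, also lies on the opposite strand, 14 to 21 bases after the start (chr2:152344039-152344046). A match describes the letters in the window and does not show that a factor binds there.

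Slc7a5, the LAT1 gene (chromosome 8, 121881146 to 121907686, minus strand, GRCm38.p6), had its highest levels in the untreated diabetic mice and its lowest under puerarin. In db/m glomeruli it was at 3.43, 3.55, 5.83 and 4.58 CPM in libraries S184, S185, 2 and 3. In db/db vehicle it was at 4.59, 5.03, 8.85 and 6.14 CPM in S152, S153, 1 and 3. Under puerarin it was at 2.34, 4.73 and 3.19 CPM in S144, 2 and 3. Across title forms the groups overlapped, since puerarin 2 lay just above db/db vehicle S152 and db/m 2 lay above S152 and S153. Within each title form, every db/db vehicle library lay above every db/m and every puerarin library. Each form holds few libraries of a group, and these levels were among the values that chose the gene. The share of all genes ordered in this way was not computed, so nothing is read from the order. Group-tag libraries were higher than S-number libraries, at a mean of 5.55 against 3.79 CPM. The log2 difference was -0.64 for S number minus group tag (edgeR adjusted p = 0.0342 for the title form term).

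The group means of Slc7a5 were 4.34 ± 1.12 CPM in db/m (SD, n = 4), 6.15 ± 1.91 CPM in db/db vehicle (SD, n = 4) and 3.42 ± 1.21 CPM under puerarin (SD, n = 3). With title form in the model, db/db vehicle stood 1.41-fold above db/m (log2 fold change 0.50, SE 0.17), with 0.46 in the S-number libraries and 0.51 in the group-tag ones. Puerarin stood 1.94-fold below db/db vehicle (log2 fold change -0.96, SE 0.19), with -1.02 and -0.91 within the 2 forms. Puerarin also stood 1.38-fold below db/m (log2 fold change -0.46, SE 0.19), with -0.56 and -0.41. These comparisons share libraries: the db/db vehicle libraries enter the first and the second, and the db/m libraries the first and the third.

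The puerarin difference of Slc7a5 had an edgeR p of 0.000518, the sixth smallest of 13734, and a Benjamini-Hochberg adjusted p of 0.967, in a comparison where no gene passed. DESeq2 gave a like difference (log2 fold change -0.95, SE 0.21) and an adjusted p of 0.0125. Over 21 other settings the difference stayed between -1.13 and -0.83 and the db/db difference between 0.39 and 0.59, each without a change of sign. The ends of the puerarin range came from leaving out puerarin 2 (-1.13) and puerarin 3 (-0.83). With both puerarin 2 and 3 left out it was -1.03. Library db/db vehicle 1, highest in Slc7a5, was also highest in myeloid markers, at a summed 808 CPM (8 of 8 measured) where the other 10 libraries had 66.5 to 208 CPM. Without it the db/db difference of Slc7a5 was 0.39 and the puerarin difference -0.83. By the mean log2 deviation of these markers, db/db vehicle 1 was at 3.05 and db/db vehicle 3, which ranked 2 of 11 in Slc7a5, came next at 1.01. Puerarin 3 followed at 0.79 and ranked 10 of 11 in Slc7a5. The part of myeloid content in the Slc7a5 level was not tested.

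**Figure D1:**
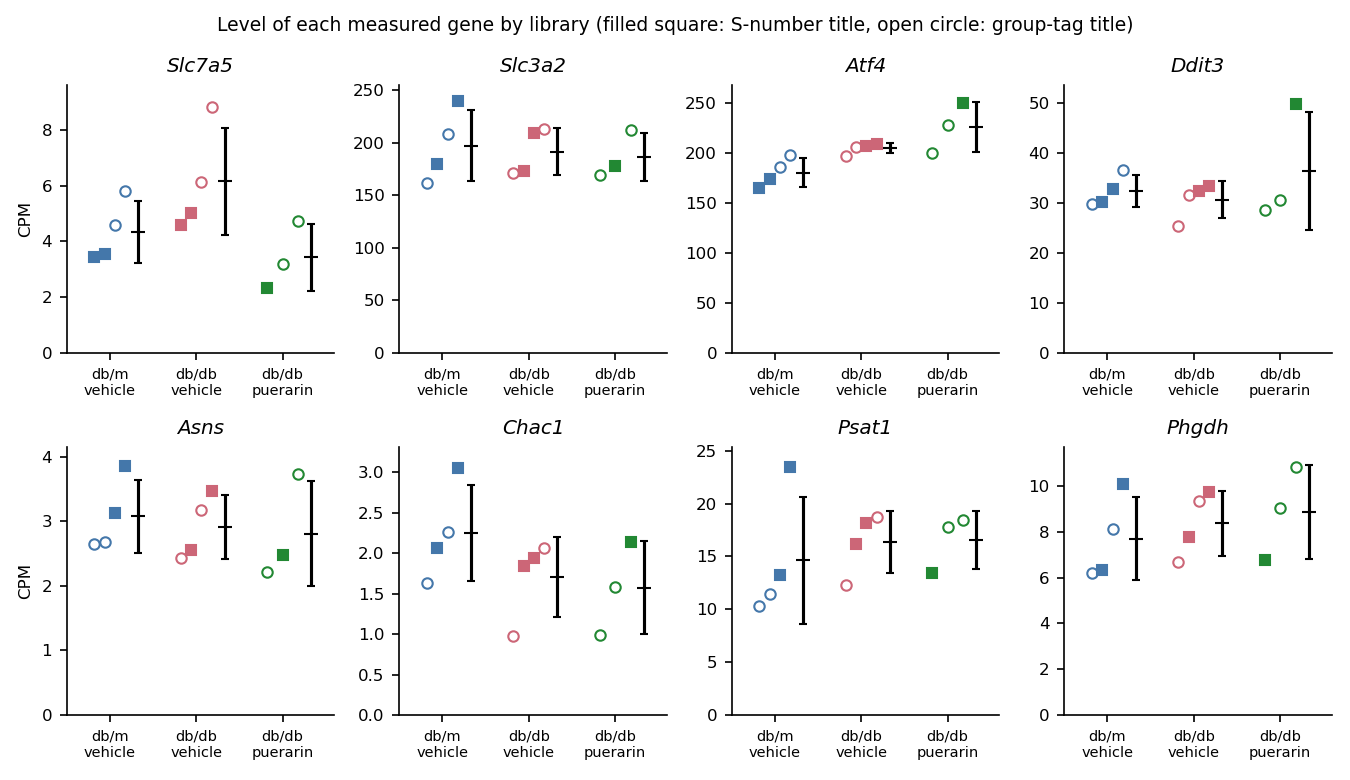
Level of each of the 8 measured genes in CPM (linear axes from 0) for each library, by group, with filled squares for S-number and open circles for group-tag titles, and black bars for the group mean ± SD. Slc7a5 is highest in db/db vehicle 1 at 8.85 CPM and lowest in puerarin S144 at 2.34 CPM, while Slc3a2 spans 162 to 239.5 CPM with all 3 groups overlapping.

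**Figure D2:**
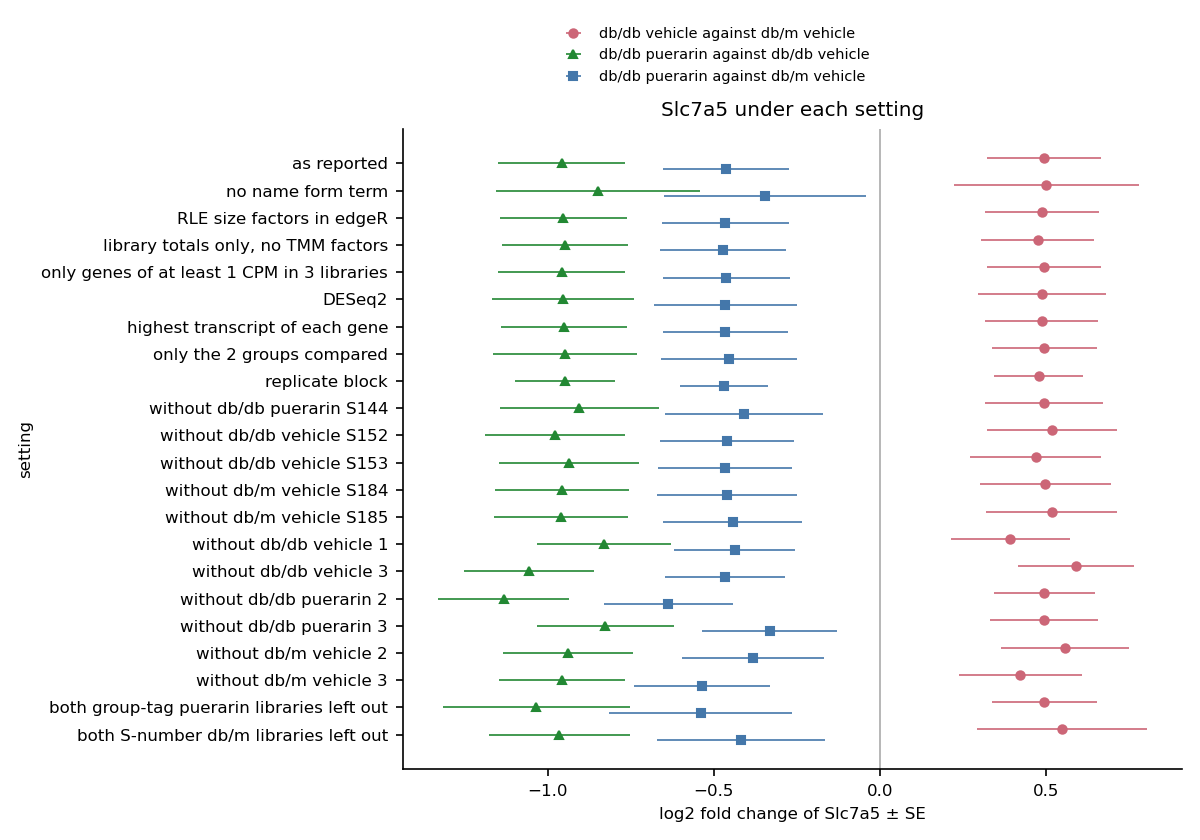
Log2 fold change of Slc7a5 ± SE (x axis) in the 3 comparisons under each setting (y axis), one marker and color per comparison. The puerarin difference runs from -1.13 to -0.83 and the db/db difference from 0.39 to 0.59, with no value on the other side of 0.

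Slc3a2, the CD98 heavy chain gene (chromosome 19, 8706882 to 8723369, minus strand), differed little between groups. It was at 239.5, 179, 162 and 208 CPM in db/m S184, S185, 2 and 3. It was at 173, 209, 171 and 213 CPM in db/db vehicle S152, S153, 1 and 3, and at 178, 213 and 169 CPM in puerarin S144, 2 and 3. The groups overlapped throughout, and the highest and the lowest of the 11 libraries were both db/m. The means were 197 ± 34.0 CPM in db/m, 192 ± 22.3 CPM in db/db vehicle (SD, n = 4 each) and 187 ± 22.8 CPM under puerarin (SD, n = 3). The log2 fold changes were -0.04 (SE 0.14) for db/db vehicle against db/m, -0.03 (SE 0.15) for puerarin against db/db vehicle and -0.07 (SE 0.15) for puerarin against db/m. For Slc7a5, its transport partner, the value for puerarin against db/db vehicle was -0.96.

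Atf4, the transcription factor gene of the response (chromosome 15, 80255184 to 80257545, plus strand), was lowest in db/m and highest under puerarin. It was at 173, 164, 197 and 185.2 CPM in db/m S184, S185, 2 and 3. It was at 206, 208, 197 and 206 CPM in db/db vehicle S152, S153, 1 and 3. Puerarin S144, 2 and 3 had 249.6, 228 and 199 CPM. All 3 puerarin libraries lay above all 4 db/m libraries, while db/db vehicle overlapped db/m at 197 CPM and overlapped puerarin as well.

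The Atf4 means were 179.9 ± 14.3 CPM in db/m, 204 ± 5.10 CPM in db/db vehicle (SD, n = 4 each) and 226 ± 25.3 CPM under puerarin (SD, n = 3). The log2 fold change was 0.18 (SE 0.09) for db/db vehicle against db/m, with 0.30 in the S-number libraries and 0.07 in the group-tag ones. Puerarin against db/db vehicle gave 0.14 (SE 0.10), with 0.27 and 0.08. Puerarin against db/m gave 0.33 (SE 0.10), with 0.57 and 0.16. The size rested on the S-number libraries. Without both S-number db/m libraries the db/db difference of Atf4 was 0.04 and the puerarin difference from db/m was 0.20. Without puerarin S144 the difference between puerarin and db/db vehicle was 0.03, and without puerarin 2 and 3 it was 0.34.

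Ddit3 encodes CHOP, a C/EBP family factor that ATF4 induces and that promotes cell death when stress persists (chromosome 10, 127290793 to 127296291, plus strand). It was at 30.2, 32.9, 36.7 and 29.8 CPM in db/m S184, S185, 2 and 3, and at 33.5, 32.4, 25.4 and 31.6 CPM in db/db vehicle S152, S153, 1 and 3. Puerarin S144 had 49.98 CPM, and puerarin 2 and 3 had 28.7 and 30.6 CPM. One library thus stood above the other 10, and those 10 overlapped across groups. The means were 32.4 ± 3.16, 30.7 ± 3.62 (SD, n = 4 each) and 36.4 ± 11.8 CPM (SD, n = 3). The puerarin difference from db/db vehicle was 0.27 on the log2 scale (SE 0.16), with 0.60 in the S-number libraries and 0.06 in the group-tag ones. Without S144 it was -0.02, and against db/m it went from 0.18 (SE 0.16) to -0.10.

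S144 was the highest library for both Atf4 and Ddit3 and the lowest for Slc7a5. It also had the fewest counts of loop and distal tubule markers (summed 1536 CPM, 7 of 7 measured) and of collecting duct markers (65.1 CPM, 6 of 6 measured). The other 10 libraries had at least 2461 and 113 CPM of these lists. The part of tubule content in the Atf4, Ddit3 and Slc7a5 levels of S144 was not tested.

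**Figure D3:**
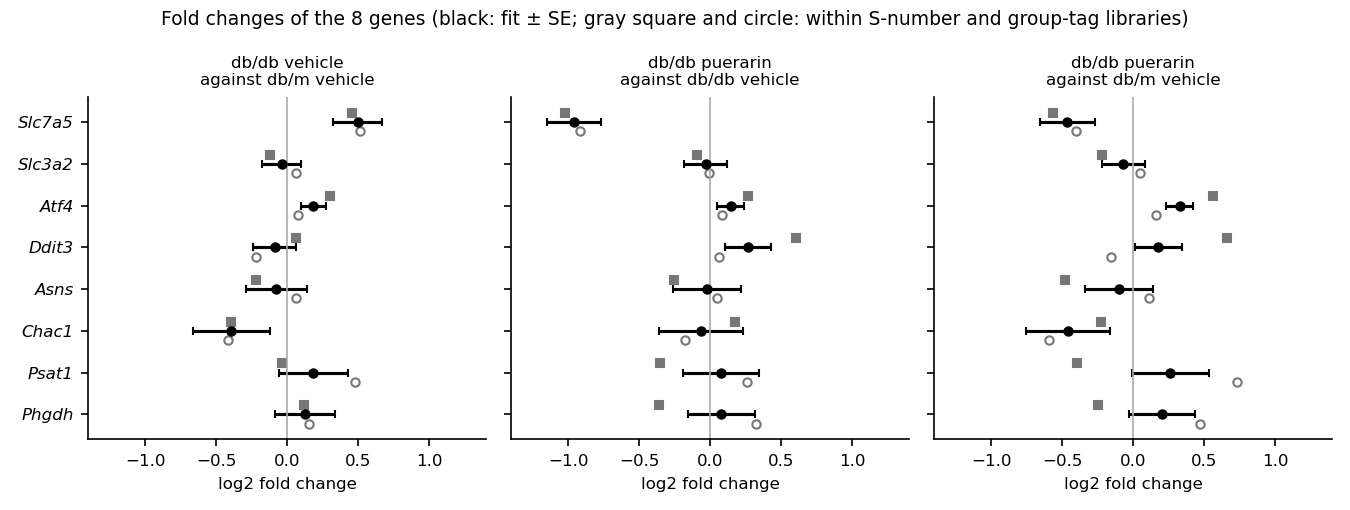
Log2 fold change of the 8 measured genes (y axis) in the 3 comparisons, with black points for the fit ± SE, gray squares for the difference within S-number libraries and open circles within group-tag libraries. Slc7a5 lies away from 0 with both forms alike, while Ddit3 under puerarin is 0.60 in one form and 0.06 in the other.

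Asns encodes asparagine synthetase, a textbook target of the amino acid branch of the response (chromosome 6, 7675165 to 7693209, minus strand). It was low, at 3.12, 3.86, 2.64 and 2.69 CPM in db/m S184, S185, 2 and 3, and at 2.55, 3.47, 2.44 and 3.18 CPM in db/db vehicle S152, S153, 1 and 3. Puerarin S144, 2 and 3 had 2.48, 2.21 and 3.74 CPM. The puerarin group spanned nearly the whole range, and no group stood apart. The log2 fold changes were -0.08 (SE 0.22) for db/db vehicle against db/m, -0.02 (SE 0.24) for puerarin against db/db vehicle and -0.10 (SE 0.24) for puerarin against db/m. The last was -0.37 without puerarin 3 and 0.09 without S144.

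Chac1 encodes an enzyme that breaks down glutathione and is induced through ATF4 (chromosome 2, 119351242 to 119354326, plus strand). It was at 2.06, 3.05, 1.63 and 2.26 CPM in db/m S184, S185, 2 and 3. It was at 1.94, 1.84, 2.06 and 0.978 CPM in db/db vehicle S152, S153, 1 and 3, and at 2.14, 0.991 and 1.58 CPM in puerarin S144, 2 and 3. The groups overlapped, with the highest library in db/m and the lowest in db/db vehicle. Db/db vehicle was at -0.39 against db/m (log2, SE 0.27), with -0.40 and -0.42 within the 2 title forms, and puerarin at -0.46 against db/m (SE 0.29), with -0.22 and -0.60. Puerarin and db/db vehicle differed by -0.07 (SE 0.30). The db/db difference from db/m was -0.24 without db/db vehicle 3 and -0.64 without db/db vehicle 1, and the puerarin difference from db/m was -0.28 without puerarin 2. Chac1 rested on 35 to 135 counts per library. Its highest library, db/m S185, was also the highest in glomerular endothelial markers (6962 CPM), and its lowest, db/db vehicle 3, the lowest in them (3122 CPM). The part of endothelial content in its level was not tested.

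Psat1 and Phgdh encode enzymes of serine synthesis from glycolysis, which ATF4 activates. Psat1 (chromosome 19, 15905123 to 15925059, minus strand) was at 23.4, 13.3, 11.5 and 10.3 CPM in db/m S184, S185, 2 and 3. It was at 16.2, 18.2, 12.3 and 18.7 CPM in db/db vehicle S152, S153, 1 and 3, and at 13.4, 18.4 and 17.8 CPM in puerarin S144, 2 and 3. Db/m S184 was the highest of the 11 and the other 3 db/m libraries were among the lowest 4. S184 was also the highest in proximal tubule markers, at 5071 CPM (8 of 8 measured), where the other 10 libraries had 542 to 2567 CPM. The part of tubule content in Psat1 was not tested. The Psat1 differences took opposite signs in the title forms: puerarin against db/m was -0.39 in the S-number libraries and 0.73 in the group-tag ones, for 0.26 (SE 0.27) in the fit. Db/db vehicle against db/m was 0.18 (SE 0.24), and 0.48 without S184 alone or 0.62 without both S-number db/m libraries. Puerarin against db/db vehicle was 0.08 (SE 0.27), and -0.50 without puerarin 2 and 3.

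Phgdh (chromosome 3, 98313171 to 98339969, minus strand) was at 10.1, 6.35, 6.22 and 8.13 CPM in db/m S184, S185, 2 and 3, and at 7.76, 9.75, 6.68 and 9.35 CPM in db/db vehicle S152, S153, 1 and 3. Puerarin S144, 2 and 3 had 6.76, 9.04 and 10.8 CPM. The groups overlapped, and each held libraries both under 7 and over 9 CPM. Phgdh differed by 0.12 (log2, SE 0.21) between db/db vehicle and db/m, by 0.08 (SE 0.23) between puerarin and db/db vehicle and by 0.20 (SE 0.23) between puerarin and db/m. The puerarin differences had opposite signs within the title forms, at -0.36 and 0.32 against db/db vehicle. Leaving out 1 library gave 0.03 (without db/db S153) to 0.31 (without db/m S184) for db/db vehicle against db/m, -0.07 (without puerarin 3) to 0.33 (without S144) for puerarin against db/db vehicle, and 0.05 to 0.45 without the same 2 libraries for puerarin against db/m.

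Among the 8 genes, 0 passed an edgeR adjusted p of 0.05 in any comparison. For db/db vehicle against db/m, 0.0437% of all genes passed (6 of 13734). For puerarin against db/db vehicle 0% passed (0 genes), and for puerarin against db/m 0.182% passed (25 genes). By an unadjusted edgeR p under 0.05, 1 of 8 genes (Slc7a5) was called in the first comparison, where 10.3% of all genes were, and 1 of 8 (Slc7a5) in the second, where 4.21% were (578 genes). In the third, 2 of 8 were called (Slc7a5 and Atf4), where 10.3% of all genes were. By DESeq2's adjusted p, 0 of 8 were called for db/db vehicle against db/m, where 2.11% of all genes were. Slc7a5 alone was called for puerarin against db/db vehicle, where 0.109% were (15 genes), and 0 of 8 for puerarin against db/m, where 2.16% were. The groups did not overlap in CPM for 0, 0 and 1 (Atf4) of the 8 genes, where 4.96%, 3.23% and 7.65% of all genes did not. As these contrasts chose the genes, nothing is read from the counts.

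The 8 genes lay on both sides of 0. In each comparison 4 of 8 were above 0, with a median log2 fold change of 0.04 for db/db vehicle against db/m, 0.03 for puerarin against db/db vehicle and 0.05 for puerarin against db/m. The medians of all genes were 0.02, -0.02 and -0.01. Under puerarin Slc7a5 and Atf4 lay on opposite sides of 0 in both title forms.

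Levels of the 8 genes were compared per kilobase, on the transcript with the most counts. Averaged over the 11 libraries, Atf4 was at 61.0 CPM per kilobase (49.6 to 75.6), Slc3a2 at 39.4 (33.1 to 49.0) and Ddit3 at 19.6 (15.3 to 29.9). These ranges did not overlap. Phgdh was at 4.42 and Psat1 at 3.65 CPM per kilobase, and their ranges overlapped. Asns, Slc7a5 and Chac1 came last, at 1.53, 1.35 and 1.19 CPM per kilobase, and could not be ordered beyond their spread. Slc3a2, which also pairs with other light chains, was thus far above Slc7a5 in every library, since Slc7a5 reached at most 2.52 CPM per kilobase.

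The genes also differed in how much they varied. Slc7a5 ranged 3.77-fold between its lowest and highest library and Chac1 3.12-fold, while Atf4 ranged 1.52-fold and Slc3a2 1.48-fold. The coefficient of variation over the 11 libraries was 37.3% for Slc7a5 and 31.3% for Chac1, and counting error alone gives 7.31% and 11.5% at their depth. Of all genes, 87.8% varied less than Slc7a5 on the log2 scale and 31.0% less than Atf4.

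**Figure D4:**
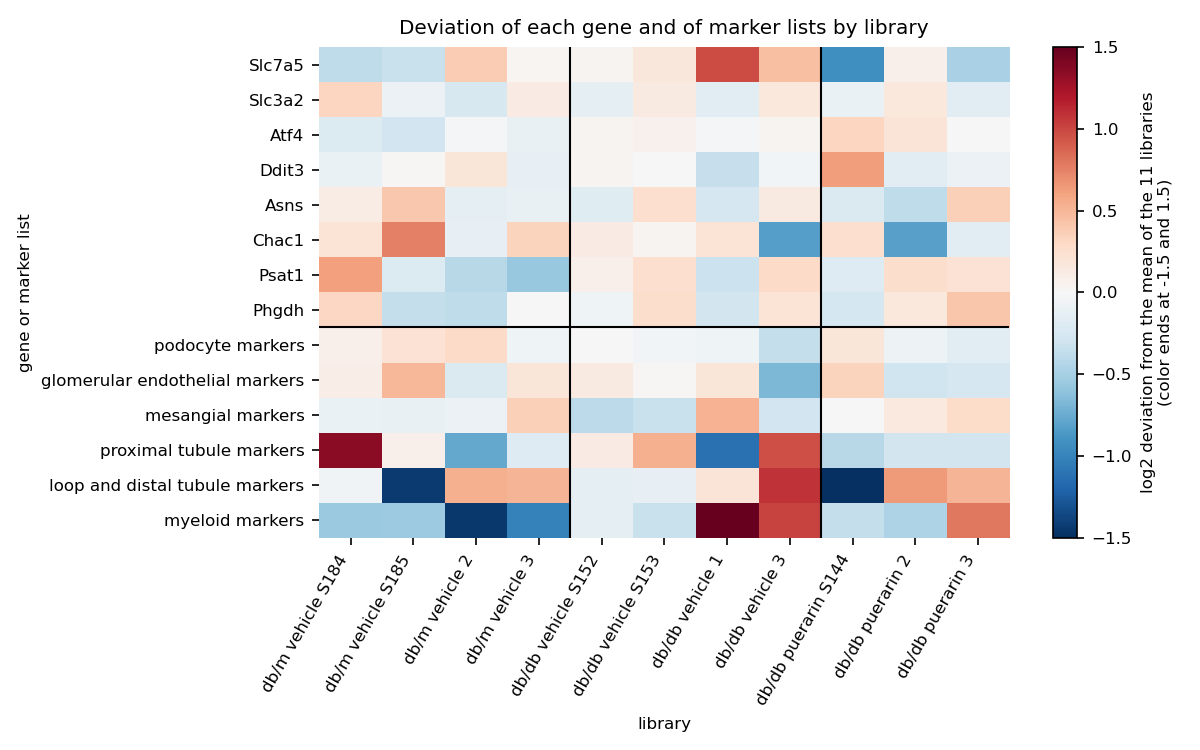
Log2 deviation from the mean of the 11 libraries (color, ends at -1.5 and 1.5) for each of the 8 genes and for 6 cell type marker lists (rows), by library (columns, with lines between groups). Puerarin S144 is low for Slc7a5 and for loop and distal tubule markers and high for Atf4 and Ddit3, and db/db vehicle 1 is high for Slc7a5 and for myeloid markers.

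To describe how close other genes lay over the 11 libraries, each gene's log2 CPM was centred and the root mean square difference was taken. This measure counts the size of the swings as well as their direction. Genes that vary little can therefore lie near each other without rising and falling together. The nearest genes to Slc7a5 were Rab32 (0.29) and Rufy4 (0.29), both lowest in puerarin S144 and highest in a group-tag db/db vehicle library. The nearest of the other 7 genes, Slc3a2, ranked only 6194 of 13733 (0.53). Atf4 was nearest to Cfap43 (0.07) and to Col4a6 (0.08), a basement membrane collagen chain gene. Both were lowest in db/m S185 and highest in puerarin S144, as Atf4 was. Ddit3 was nearest to Anapc10 (0.13) and Sh3tc2 (0.13), and Atf4 ranked 743 from it (0.21).

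Chac1 was nearest to Ccrl2 (0.08) and to Dll4 (0.11), a Notch ligand gene of endothelium, both highest in db/m S185 and lowest in db/db vehicle 3. Psat1 was nearest to Scp2 (0.11), a peroxisomal lipid enzyme gene, and Pkd1l3 (0.13), both highest in db/m S184 and lowest in db/m 3. Phgdh ranked 120 of 13733 from Psat1 (0.22), but the nearest of the 8 genes to Phgdh was Slc3a2 (0.22, rank 659), and the smallest difference between any 2 of the 8 was that of Atf4 and Ddit3 (0.21). Asns was nearest to Saal1 (0.12) and Rint1 (0.14), Slc3a2 to Psmb6 (0.06) and Fgfrl1 (0.07), and Phgdh to Obox7 (0.12) and Abcc6 (0.12).

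The rest of the pathway was described through 7 lists with 122 different measured genes. Of these, 1 passed an edgeR adjusted p of 0.05 in any comparison. Slc6a6, which encodes the taurine transporter, rose in puerarin-treated db/db against db/m glomeruli. It was at 326, 369, 302 and 293 CPM in db/m S184, S185, 2 and 3, and at 594, 563 and 401 CPM in puerarin S144, 2 and 3. Every puerarin library lay above every db/m library. The means were 322 ± 34.1 CPM (SD, n = 4) and 520 ± 104 CPM (SD, n = 3), 0.72 higher on the log2 scale (SE 0.11, edgeR adjusted p = 0.0455), and 0.78 and 0.68 within the 2 title forms. Db/db vehicle, at 450 ± 32.9 CPM (SD, n = 4), also lay wholly above db/m (log2 fold change 0.48, edgeR adjusted p = 0.138). The call for Slc6a6 was lost in 13 of 21 other settings, among them leaving out S144, S152, S153, S184, S185, puerarin 2, db/m 2 or db/m 3, with values from 0.61 to 0.86 and adjusted p-values from 8.25e-06 (DESeq2) to 0.382.

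Of the eIF2 kinases and phosphatase subunits, which set eIF2 phosphorylation (9 of 9 measured), 0 passed edgeR's test and 0 passed DESeq2's. Their median log2 fold changes were 0.06 for db/db vehicle against db/m, -0.01 for puerarin against db/db vehicle and 0.07 for puerarin against db/m. Ppp1r15a, the stress-induced phosphatase subunit GADD34, was at 26.2 ± 4.71 CPM in db/m, 29.8 ± 6.42 CPM in db/db vehicle (SD, n = 4 each) and 35.6 ± 6.31 CPM under puerarin (SD, n = 3). Its log2 fold change for puerarin against db/m was 0.49 (SE 0.17, edgeR adjusted p = 0.326), and it was the single gene of this list under an unadjusted p of 0.05 in any comparison (10.3% of all genes in this one).

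Of the other ATF4 targets (24 of 28 measured), 0 passed edgeR's test, and 18, 12 and 16 were above 0 in the 3 comparisons, with medians of 0.14, -0.01 and 0.09. By an unadjusted p under 0.05, 5 were higher and 1 lower in db/db vehicle than in db/m, 1 was higher and 1 lower under puerarin than in db/db vehicle, and 3 were higher under puerarin than in db/m. Of all genes, 10.3%, 4.21% and 10.3% were called by this rule. DESeq2 called 2, 0 and 2 of the 24, and 2.11%, 0.109% and 2.16% of all genes. The groups did not overlap in CPM for 3, 2 and 3 of the 24, and for 4.96%, 3.23% and 7.65% of all genes. Nupr1, a stress-induced chromatin protein gene, was at 133, 126, 159 and 161 CPM in db/m S184, S185, 2 and 3 and at 252, 394, 238 and 264 CPM in db/db vehicle S152, S153, 1 and 3. The groups did not overlap (log2 fold change 0.97, SE 0.18, edgeR adjusted p = 0.0939). Under puerarin it was at 361, 282 and 249 CPM, again above all db/m libraries (1.04, SE 0.19, edgeR adjusted p = 0.0656). Stc2, a secreted glycoprotein gene, was lower in db/db vehicle, at 2.27 ± 0.703 against 4.12 ± 0.801 CPM (SD, n = 4 each), or -0.87 on the log2 scale (SE 0.24, edgeR adjusted p = 0.236), and the groups did not overlap. Atf3, a stress-induced transcription factor gene, was at 17.2 ± 15.1 CPM in db/db vehicle and 9.29 ± 6.38 CPM in db/m (SD, n = 4 each; 0.75 on the log2 scale, SE 0.43, edgeR adjusted p = 0.601). Cbs, the first enzyme gene of cysteine synthesis from homocysteine, had the lowest value for puerarin against db/m (-0.80 on the log2 scale, SE 0.50, edgeR adjusted p = 0.676). Puerarin libraries averaged 16.3 ± 4.73 CPM (SD, n = 3) against 32.4 ± 22.7 CPM for db/m (SD, n = 4). The difference was -1.87 within the S-number libraries, where S144 is the single puerarin library, and -0.01 within the group-tag ones. Over 21 other settings it ran from -1.81 to -0.22. Db/m S184, the highest library in proximal tubule markers, had 65.9 CPM of Cbs, where db/m S185, 2 and 3 had 24.9, 15.9 and 22.7 CPM. The part of tubule content in the Cbs level was not tested.

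Sesn2 encodes a stress-induced leucine sensor upstream of mTORC1, and had its highest levels in db/db vehicle. It was at 10.8, 6.69, 9.19 and 11.3 CPM in db/m S184, S185, 2 and 3, at 12.2, 11.6, 13.4 and 13.6 CPM in db/db vehicle S152, S153, 1 and 3, and at 7.93, 9.23 and 10.9 CPM in puerarin S144, 2 and 3. The db/db vehicle group lay wholly above both other groups. The log2 fold changes were 0.42 (SE 0.15, edgeR adjusted p = 0.372) for db/db vehicle against db/m and -0.49 (SE 0.17, edgeR adjusted p = 0.967) for puerarin against db/db vehicle, so neither passed. Puerarin and db/m differed by -0.07 (SE 0.16, edgeR adjusted p = 0.959). Slc38a2, the system A transporter SNAT2 and an ATF4 target, had its highest levels under puerarin. It was at 104, 106 and 102 CPM in S144, 2 and 3, above db/db vehicle at 78.5, 64.7, 96.6 and 84.7 CPM in S152, S153, 1 and 3 (log2 fold change 0.33, SE 0.11, edgeR adjusted p = 0.967).

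Among the other amino acid transporters (27 of 33 measured) the medians were 0.14, -0.06 and -0.00, and 20, 12 and 13 were above 0. Besides Slc6a6, 0 passed edgeR's test. By an unadjusted p under 0.05, 2 were higher and 3 lower in the first comparison, 1 higher and 2 lower in the second, and 3 higher and 3 lower in the third, where 10.3%, 4.21% and 10.3% of all genes were called. DESeq2 called 1, 0 and 4 of the 27, and 2.11%, 0.109% and 2.16% of all genes. The groups did not overlap in CPM for 2, 2 and 4 of the 27, and for 4.96%, 3.23% and 7.65% of all genes. Slc7a13, a tubular carrier of acidic amino acids, was at 102.6, 40.4, 21.6 and 29.6 CPM in db/m S184, S185, 2 and 3 and at 16.9, 31.0, 11.03 and 23.0 CPM in db/db vehicle S152, S153, 1 and 3. It was at 9.38, 5.47 and 1.19 CPM in puerarin S144, 2 and 3, below every library on vehicle. Its log2 fold change for puerarin against db/m was -2.99 (SE 0.57, edgeR adjusted p = 0.076), and -1.93 (SE 0.55, edgeR adjusted p = 0.967) against db/db vehicle. Proximal tubule markers summed to 868 to 5071 CPM in db/m, 542 to 2567 CPM in db/db vehicle and 889 to 1182 CPM under puerarin. The part of tubule content and of the sex of puerarin 2 and 3 in the Slc7a13 level was not tested. Slc38a3, a glutamine transporter gene, was at 7.85 ± 1.07 CPM in db/m and 15.0 ± 2.86 CPM in db/db vehicle (SD, n = 4 each), without overlap (log2 fold change 0.91, SE 0.36, edgeR adjusted p = 0.411). Under puerarin it was at 8.96, 41.2 and 21.1 CPM in S144, 2 and 3, so S144 lay among db/m and the other 2 above all vehicle libraries. Those 2 are the libraries that went against the labelled sex. The log2 fold change of Slc38a3 for puerarin against db/m was 1.46, and ran from 0.16 to 2.04 over 21 other settings. The part of the sex of puerarin 2 and 3 in the Slc38a3 level was not tested.

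The serine and one-carbon enzymes (15 of 16 measured) held 13 genes above 0 in db/db vehicle against db/m and 2 above 0 in puerarin against db/db vehicle, with medians of 0.08 and -0.25. In puerarin against db/m, 6 were above 0 and the median was -0.10. Within the S-number libraries, where S144 is the single puerarin library, 1 of 15 was above 0 in puerarin against db/db vehicle (median -0.62), and among the group-tag libraries 7 of 15 were (median -0.02). S144 was also the lowest library in loop, distal tubule and collecting duct markers, whose part in these values was not tested. None passed edgeR's or DESeq2's test. By an unadjusted p under 0.05, 1 of 15 was higher in db/db vehicle than in db/m (10.3% of all genes were called) and 1 lower under puerarin than in db/db vehicle (4.21% of all genes). These comparisons share the db/db vehicle libraries. Gldc, the glycine decarboxylase gene, had the highest value of the list for db/db vehicle against db/m, at 31.6 ± 16.0 against 15.9 ± 10.2 CPM (SD, n = 4 each; 0.98 on the log2 scale, SE 0.54, edgeR adjusted p = 0.59). Mthfd2, the mitochondrial folate enzyme, was at 3.4 ± 0.909 against 2.37 ± 0.662 CPM in db/db vehicle and db/m (SD, n = 4 each; log2 fold change 0.53, SE 0.16, edgeR adjusted p = 0.274). Shmt1, the cytosolic serine hydroxymethyltransferase, was at 13.2 ± 6.24 CPM under puerarin (SD, n = 3) and 16.2 ± 7.38 CPM in db/db vehicle (SD, n = 4), or -0.51 on the log2 scale (SE 0.30, edgeR adjusted p = 0.967). It was -0.96 in the S-number libraries and -0.22 in the group-tag ones. Of the aminoacyl-tRNA synthetases, several of which ATF4 induces (20 of 20 measured), 0 passed edgeR's or DESeq2's test and 1 was under an unadjusted p of 0.05, lower under puerarin than in db/db vehicle (Qars, -0.23), where 4.21% of all genes were. Their medians were -0.02, -0.05 and -0.07, with 7, 6 and 3 above 0.

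**Figure D5:**
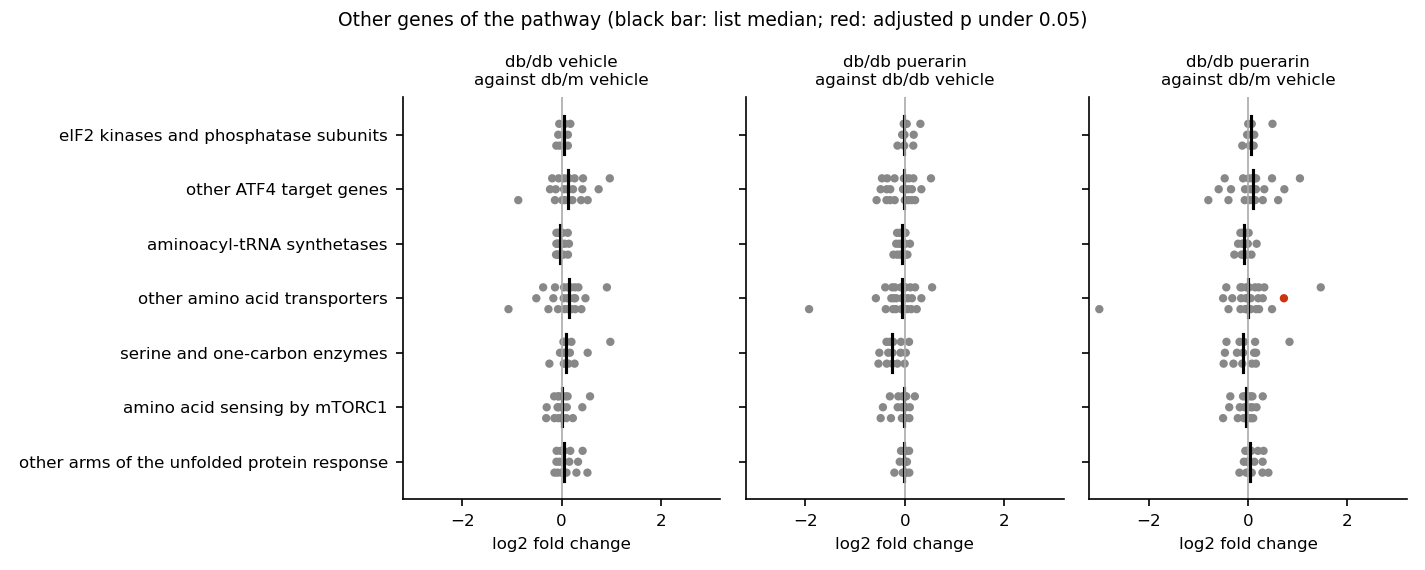
Log2 fold change (x axis) of each measured gene of the 7 pathway lists (y axis) in the 3 comparisons, with black bars at the list medians and red for an edgeR adjusted p under 0.05. Slc6a6 is the single red point, and the transporter at -2.99 is Slc7a13.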

How the data were processed

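Bulk RNA-seq of isolated glomeruli was analysed in 11 libraries of 3 groups, grouped by their labels. The submitters' processing notes name BWA, limma and the build mm10, without versions. Read assignment and use of strand were not given in the sources used here. Deposited counts are whole reads per RefSeq transcript (22320 transcripts, 15 count columns), and 4 of the columns, which match no sample, were left out. Each transcript reached at least 69 counts in some library of the 11, so shares of all genes do not cover transcripts with lower counts throughout. Log2 values in the authors' table are the log2 of these counts plus a constant per library (to within 1.0e-08), and were not used further. Blank cells (13) were read as 0, and 50 gene symbols that had become dates were restored by transcript. Counts were summed per symbol. Atf4, Ddit3, Slc3a2 and Psat1 each sum 2 overlapping transcripts, so shared reads count more than once and precision is lower than the counts imply. Levels per kilobase therefore use the transcript with the most counts alone.

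CPM used TMM factors. The test was edgeR 4.0.16 (glmQLFit and glmQLFTest, R 4.3.3) on all 11 libraries, with group and title form as terms, a minimum count of 1 in 3 libraries (no gene was removed), 7 residual and 3.14 prior degrees of freedom, and two-sided p-values adjusted by Benjamini-Hochberg over 13734 genes at 0.05. DESeq2 1.42.0, other scalings and filters, the highest transcript alone, no title form term, only the 2 groups compared, a replicate block and left-out libraries were the alternatives. The fit was tested on simulated data, with 50 genes changed at each fold. Of 1.5-fold changes it found 30%, 24% and 24% in the 3 comparisons, and of 2-fold changes 72%, 62% and 74%. False calls were 6 of 153, 9 of 148 and 5 of 152. Differences of this size can therefore go uncalled. The genes and lists were chosen with earlier results of these data known. Named genes are all members, each list gene that passed and the 2 genes nearest each member; further names were drawn from the 2 highest and 2 lowest of each list per comparison, and not all of these are named. Dixon's criterion for a sample far from the others (0.829 for 4 samples) was met by 0 of 16 sets of values in the groups of 4.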

Additional observations from a re-analysis of the deposited data

How the results depend on the processing

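Over 21 other settings, 504 fold changes of the 8 genes were computed. Of these, 488 moved by less than the spread between replicates and 42 had another sign, all for values other than those of Slc7a5 and Atf4, which kept their signs in all 3 comparisons. The number of genes that passed moved more. For db/db vehicle against db/m (6 genes) it was 1 without the title form term, 2 with only the groups compared, 290 with DESeq2, 2 without both group-tag puerarin libraries and 0 without both S-number db/m libraries. Leaving out 1 library gave 0 to 82 genes, with 82 without db/db vehicle 1, the library high in myeloid markers. For puerarin against db/m (25 genes) the same settings gave 5, 5, 297, 0 and 0 genes, and leaving out 1 library gave 0 to 74, with 74 without db/db vehicle 1. For puerarin against db/db vehicle (0 genes) DESeq2 gave 15, of which 1 was among the 8 genes (Slc7a5). Leaving out 1 library gave 0 to 5, with 5 without puerarin S144. The puerarin libraries of that fit are puerarin 2 and 3, which went against the labelled sex. The part of sex in these 5 calls was not tested. Without both group-tag puerarin libraries Gldc turned to -0.17 for puerarin against db/m (0.84 with them). The cause was not tested.

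Libraries with the same number were compared by their deviations from the mean of the group-tag libraries of their group. Over 13717 genes the correlation was 0.0591 for puerarin and db/m libraries 2 and 3. It was 0.0497 for db/db vehicle 3 and db/m 3, and -0.103 for puerarin 3 and db/db vehicle 3. Each group has only 2 group-tag libraries, so their deviations mirror each other, and puerarin and db/m give the same value for 2 and 3. These correlations therefore cannot decide whether libraries of the same number are paired, and the labels do not say. With a replicate block 56 genes passed for db/db vehicle against db/m and 49 for puerarin against db/m, and the Slc7a5 differences were 0.48, -0.95 and -0.47 in the 3 comparisons. Depth limits Chac1 and Asns most, at 35 to 135 and 78 to 171 counts per library.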

Other observations

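Lists beside the ATF4 response were also described. Of the genes through which amino acids signal to mTORC1 (21 of 21 measured), 0 passed an edgeR adjusted p of 0.05 in any comparison, with medians of 0.01 for db/db vehicle against db/m, -0.02 for puerarin against db/db vehicle and -0.04 for puerarin against db/m. By an unadjusted p under 0.05, 2 were higher and 1 lower in the first, 1 lower in the second and 3 lower in the third, near the 10.3%, 4.21% and 10.3% of all genes called by this rule. DESeq2 called 1, 0 and 0 of the 21, and 2.11%, 0.109% and 2.16% of all genes. The groups did not overlap in CPM for 2, 1 and 3 of the 21, and for 4.96%, 3.23% and 7.65% of all genes. Flcn, which encodes folliculin, an activator of the RagC and RagD GTPases, was at 119 ± 9.18 CPM in db/db vehicle and 147 ± 12.4 CPM in db/m (SD, n = 4 each), without overlap, or -0.31 on the log2 scale (SE 0.08, edgeR adjusted p = 0.213). Rragd, the RagD gene, was at 53.9 ± 16.7 against 36.4 ± 10.8 CPM in the same groups (0.57, SE 0.18, edgeR adjusted p = 0.3). Rragd was lowest in db/m S185 and puerarin S144 (22.0 and 27.7 CPM) and highest in db/db vehicle 3 (77.8 CPM). Loop and distal tubule markers were also lowest in S185 and S144 (2461 and 1536 CPM) and highest in db/db vehicle 3 (11687 CPM). The part of tubule content in the Rragd level was not tested.

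Of the other arms of the unfolded protein response (16 of 16 measured), 0 passed edgeR's or DESeq2's test, with medians of 0.04, -0.01 and 0.05. By an unadjusted p, 2 were higher in db/db vehicle than in db/m (Herpud1 and Manf), where 10.3% of all genes were called, and 0 were called in the other comparisons. The list was split by title form: in db/db vehicle against db/m, 12 of 16 were above 0 within the S-number libraries and 5 of 16 among the group-tag ones, and in puerarin against db/m 16 and 5 were. Herpud1, a gene of endoplasmic reticulum protein degradation, was at 123 ± 26.5 CPM in db/db vehicle and 86.1 ± 10.1 CPM in db/m (SD, n = 4 each), or 0.52 on the log2 scale (SE 0.15, edgeR adjusted p = 0.242). Manf, a secreted stress protein gene, was at 85.1 ± 21.0 against 61.8 ± 6.19 CPM (0.43, SE 0.18, edgeR adjusted p = 0.442), with 0.72 within S-number and 0.14 within group-tag libraries.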
